A study of Homo sapiens with 30 samples.

Results

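FOXM1 knockout clone 2 of the human multiple myeloma line OPM2, here KO2, was compared with unedited OPM2 cells, here WT, in 6 of the 30 RNA libraries of the series. The members are the libraries whose titles carry KO2 or WT in the OPM2 table, 3 for each group. WT carried no edit and no vector. KO2 was electroporated with Cas9 ribonucleoprotein against FOXM1, isolated as a single clone and given no vector; the submitters checked knockout clones by Western blot and Sanger sequencing. A second OPM2 knockout clone, KO1, was handled in the same way and serves here as a comparison. Its derivatives with an empty vector (KO1EV) and with a FOXM1 overexpression vector (KO1R) entered the statistical fit to measure the spread between libraries, and the Delta47 libraries were not used here. The comparison asks which transcripts differ in an OPM2 clone that lost FOXM1. KO2 is 1 clone, so a difference that belongs to FOXM1 loss and a difference that belongs to the clone cannot be told apart. The labels do not say whether the libraries of a group came from separate cultures, and the p-values therefore measure the spread between libraries, which may be technical.

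FOXM1 is a forkhead transcription factor that peaks late in the cell cycle. Together with B-MYB (gene MYBL2) and the MuvB complex it drives genes for the G2 phase and mitosis, among them cyclin B1, PLK1 and CDC25B. MuvB reads a short promoter element called the cell cycle homology region, often placed near CCAAT boxes, which NF-Y binds. Myeloma is a cancer of plasma cells, which secrete antibody and lean on the endoplasmic reticulum (ER) stress factors XBP1 and ATF4, and OPM2 carries a translocation that drives FGFR3 and NSD2.

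The guides fix where the gene was cut, so their target sites are shown first. The submitters list 3 guide RNAs against exon 2 of FOXM1, and the sources used here do not say which of them made KO2. Each line runs 5′ to 3′ along the guide, with the PAM, the motif that Cas9 needs next to its target, in capitals.
guide 1: ttgagaatcagtggccgacgGGG
guide 2: tgagaatcagtggccgacggGGG
guide 3: taatgaaaactagcccccgtCGG
Matched to the GENCODE v29 transcripts of FOXM1 (build GRCh38, minus strand of chromosome 12), the 20-base guide sequences, without the PAM, lie in exon 2 at chr12:2874444-2874463, chr12:2874445-2874464 and chr12:2874461-2874480. Guides 1 and 2 read antisense to the transcript, are shifted by 1 base and share 19 of their 20 bases. Both lie inside the coding sequence, whereas guide 3 reads in the sense of the transcript and is not wholly inside it.

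The deposited values are FPKM, fragment counts scaled to transcript length and library size, for 16407 genes. A gene was tested if it reached 1 FPKM in at least 3 of the 6 KO2 and WT libraries, which 10010 genes did. The column totals were 533034 to 536433 FPKM in KO2 and 528863 to 537789 FPKM in WT. They are not read counts and the depth of each library is unknown. The lowest values of 343 sparse genes, read as the worth of 1 fragment, gave a step for each library. These steps lay within −0.046 to 0.044 (log2) of the average over the 15 OPM2 libraries. Values well above a gene's lowest were left out beforehand, which narrows this range, so it does not show equal depth. Library 3 of KO2 stood apart from the other KO2 libraries. It was at least 2-fold above both of them on the log2(FPKM + 1) scale in 200 tested genes and at least 2-fold below both in 336, against 0 to 3 genes for any other single library of KO2, WT or KO1. The standard deviation (SD) of the log2 difference over tested genes was 0.105 between KO2 libraries 1 and 2 and 0.54 between libraries 1 and 3. Each call was therefore made with and without library 3. The plasma cell markers SDC1, TNFRSF17, CD38, IRF4, PRDM1, XBP1, MZB1 and SLAMF7 were present in each library of both groups, from 10.4 FPKM for CD38 to 1490 FPKM for XBP1. Markers of other cell types were nearly absent. Of 54 B cell, T and NK cell, myeloid, epithelial, stromal, endothelial and erythroid markers 37 were in the table and 3 passed the filter, and the summed level of all of them was 11.7 to 14.3 FPKM in KO2 and 15.4 to 16.9 FPKM in WT. Of these 3, PECAM1 rose from 1.16, 0.94 and 0.96 to 1.54, 1.52 and 1.67 FPKM, HBB fell from 8.89, 8.37 and 10.7 to 4.25, 7.25 and 4.40 FPKM, and CD79B did not pass; their part in the results was not tested. The B cell marker MS4A1 was listed at 0 in all WT libraries and at no more than 0.02 FPKM in KO2.

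Changes in KO2 went both ways and most were modest. Of 10010 tested genes 662 were called higher (6.61%) and 789 lower (7.88%) in KO2 than in WT at an adjusted p below 0.05. Without library 3 of KO2 the calls rose to 1439 higher (14.4%) and 1652 lower (16.5%). A gene is said here to have risen or fallen if it was called in the same direction in both fits, which held for 631 genes higher (6.3%) and 758 lower (7.57%). No gene was called in opposite directions, though the fits share every library except library 3 of KO2. Of 128 genes named from the lists and the largest changes and called in both fits, the log2 change without library 3 was within 1.5 times of that with it for 124, and AFAP1L2, CCT4, POMP and PSMC4 were the exceptions. These genes were picked because both fits called them, so this closeness is a description. It leaves out the genes that library 3 moved most. Only 34 of the risen and 50 of the fallen genes changed by 2-fold or more. The median log2 change over all tested genes was 0.02, and −0.01 without library 3, and all list medians below are read beside these values. Shares of list members called in both fits are read beside 6.3% risen and 7.57% fallen. Counts called without library 3 are read beside 14.4% higher and 16.5% lower. The filter let 96 genes pass through 1 of the groups alone, and 83 of them were called in both fits, as a low gene that passes in this way has to differ. Fold changes are given as log2 ± standard error (SE) on the log2(FPKM + 1) scale, which understates the change of genes near 1 FPKM.

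FOXM1 itself was lower in every KO2 library. It stood at 175, 176 and 177 FPKM in WT and at 57.1, 59.5 and 69.7 FPKM in KO2, and the groups were far apart. The log2 change was −1.49 ± 0.07 (adjusted p = 1.26e-08), and −1.58 ± 0.048 (adjusted p = 1.51e-11) without library 3. In KO1 the level was 91.2, 93.3 and 91.7 FPKM, and KO2 lay below it (log2 −0.57 ± 0.07, adjusted p = 5.54e-05). FPKM counts reads from edited transcripts too and does not measure the protein.

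Part of the mitotic genes fell in KO2, and how many did depended on library 3. The 5 lists of genes for mitotic entry, the spindle checkpoint, the kinetochore, spindle motors and cytokinesis hold 114 tested genes, of which 23 fell (20.2%) and 2 rose, beside 7.57% and 6.3% of all tested genes. Their median log2 change was −0.09, and −0.19 without library 3. In library 3, 94 of the 114 stood above both other KO2 libraries, and without it 57 were called lower and 6 higher, beside 16.5% and 14.4% of all tested genes. The fit to the KO2 and WT libraries alone called fewer genes lower, 236 of all tested genes. By list it called lower 5 of 25 mitotic entry, 1 of 28 kinetochore, 2 of 30 spindle, 1 of 15 checkpoint and 0 of 16 cytokinesis genes. A smaller share of cells in mitosis and less transcript per mitotic cell cannot be told apart in bulk RNA.

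Among regulators of mitotic entry 9 of 25 fell (36%, beside 7.57% of all tested genes) and 0 rose, and without library 3 there were 13 called lower and 3 higher. PLK1, the polo-like kinase of mitotic entry, was at 140.2, 154 and 153 FPKM in WT and 69.0, 65.0 and 75.1 FPKM in KO2 (log2 −1.09 ± 0.065, adjusted p = 1.52e-07). CDC25B, the phosphatase that switches on CDK1, went from 94.5, 96.1 and 101 FPKM to 40.4, 47.7 and 45.0 FPKM (log2 −1.11 ± 0.069, adjusted p = 2.12e-07). CCNB1, cyclin B1, went from 121, 127 and 125 FPKM to 50.4, 49.6 and 66.2 FPKM (log2 −1.16 ± 0.11, adjusted p = 1.04e-05). For each of these 3 genes every KO2 library lay below every WT library, and library 3 was the highest of the KO2 libraries for PLK1 and CCNB1 but not for CDC25B. NEK2, a centrosome kinase, fell from 53.9, 53.2 and 49.5 to 30.9, 31.7 and 33.0 FPKM (log2 −0.69 ± 0.062, adjusted p = 7.12e-06). MASTL, the Greatwall kinase, fell from 17.5, 17.5 and 16.9 to 10.1, 10.6 and 13.3 FPKM (log2 −0.58 ± 0.084, adjusted p = 0.00042).

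In the kinetochore and spindle lists more genes were called without library 3 than in both fits. Of 28 kinetochore and chromosomal passenger genes 5 fell (17.9%, beside 7.57% of all tested genes) and 1 rose. Without library 3 there were 12 called lower (42.9%, beside 16.5%) and 1 higher. Without WT library 1 or WT library 3, 3 were called lower. CENPA, the histone variant that marks the centromere, fell from 19.4, 18.4 and 18.4 to 10.2, 10.4 and 10.1 FPKM (log2 −0.81 ± 0.053, adjusted p = 3.56e-07), with the KO2 libraries close together. Its loading factor HJURP fell by a smaller step (log2 −0.37 ± 0.052, adjusted p = 0.000327), CENPH and CENPU fell too (log2 −0.45 ± 0.081 and −0.21 ± 0.062), and CENPW was the member that rose (log2 0.36 ± 0.085, adjusted p = 0.011). Among 30 motors and spindle genes 7 fell (23.3%) and 0 rose, and without library 3 there were 19 called lower (63.3%) and 0 higher. KIF20A, the kinesin of the central spindle, was at 21.2, 20.8 and 20.7 FPKM in WT and 10.96, 9.67 and 13.9 FPKM in KO2 (log2 −0.82 ± 0.10, adjusted p = 8.69e-05). GPSM2, which ties the spindle to the cell cortex, fell further than any other member of the 5 mitotic lists, from 8.82, 8.24 and 8.30 to 2.75, 2.16 and 2.67 FPKM (log2 −1.43 ± 0.078, adjusted p = 5.59e-08). TROAP, a spindle-associated protein, was at 35.2, 41.6 and 42.5 FPKM in WT and at 16.4, 16.7 and 30.2 FPKM in KO2, where library 3 lay about midway between WT and the other 2 (log2 −0.94 ± 0.19, adjusted p = 0.00425, and −1.21 ± 0.11 without library 3). CKAP2 and GAS2L3 also fell (log2 −0.49 ± 0.10 and −0.49 ± 0.10).

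The spindle checkpoint list split, with 1 of 15 fallen and 1 risen (6.67% each, near the 7.57% and 6.3% of all tested genes), and 4 called lower and 1 higher without library 3. PTTG1, securin, fell from 189, 176 and 171 to 108, 108 and 121 FPKM (log2 −0.66 ± 0.059, adjusted p = 7.11e-06), while BUB1, a checkpoint kinase, rose from 79.3, 76.4 and 75.1 to 99.1, 102 and 117 FPKM (log2 0.45 ± 0.064, adjusted p = 0.00033). The other 13 of 15 members did not pass in both fits, among them CDC20 (log2 0.41 ± 0.14, adjusted p = 0.0732), TRIP13 (0.29 ± 0.11, adjusted p = 0.0973) and BUB3 (0.15 ± 0.066, adjusted p = 0.167). In cytokinesis 1 of 16 genes fell (6.25%), CEP55, the midbody scaffold (log2 −0.39 ± 0.068, adjusted p = 0.00156), and 9 were called lower and 1 higher without library 3. Several well-known late cell cycle genes did not pass with all libraries. AURKA was at 59.2, 60.1 and 59.5 FPKM in WT and 63.7, 64.3 and 84.9 FPKM in KO2 (adjusted p = 0.111), and BIRC5, survivin, at 48.1, 48.6 and 47.7 FPKM in WT against 48.8, 48.3 and 65.7 FPKM in KO2 (adjusted p = 0.315). AURKB was at 73.9, 79.1 and 83.5 FPKM in WT and 65.3, 65.5 and 87.5 FPKM in KO2, called lower without library 3 (log2 −0.26 ± 0.063, adjusted p = 0.00518) but not with it (adjusted p = 0.446). CENPF, a kinetochore protein, MKI67, the proliferation marker Ki-67, and MYBL2 were likewise called lower without library 3 alone, with log2 −0.60 ± 0.066, −0.66 ± 0.18 and −0.19 ± 0.049 without library 3 (adjusted p = 9.65e-06, 0.0132 and 0.00763) and −0.37 ± 0.14, −0.42 ± 0.22 and −0.01 ± 0.11 with it (adjusted p = 0.0929, 0.226 and 0.96). RACGAP1, SMC2 and CIT, which act in cytokinesis or chromosome condensation, were called lower without library 3 alone (log2 −0.28 ± 0.051, −0.35 ± 0.072 and −0.25 ± 0.091).

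**Figure D1:**
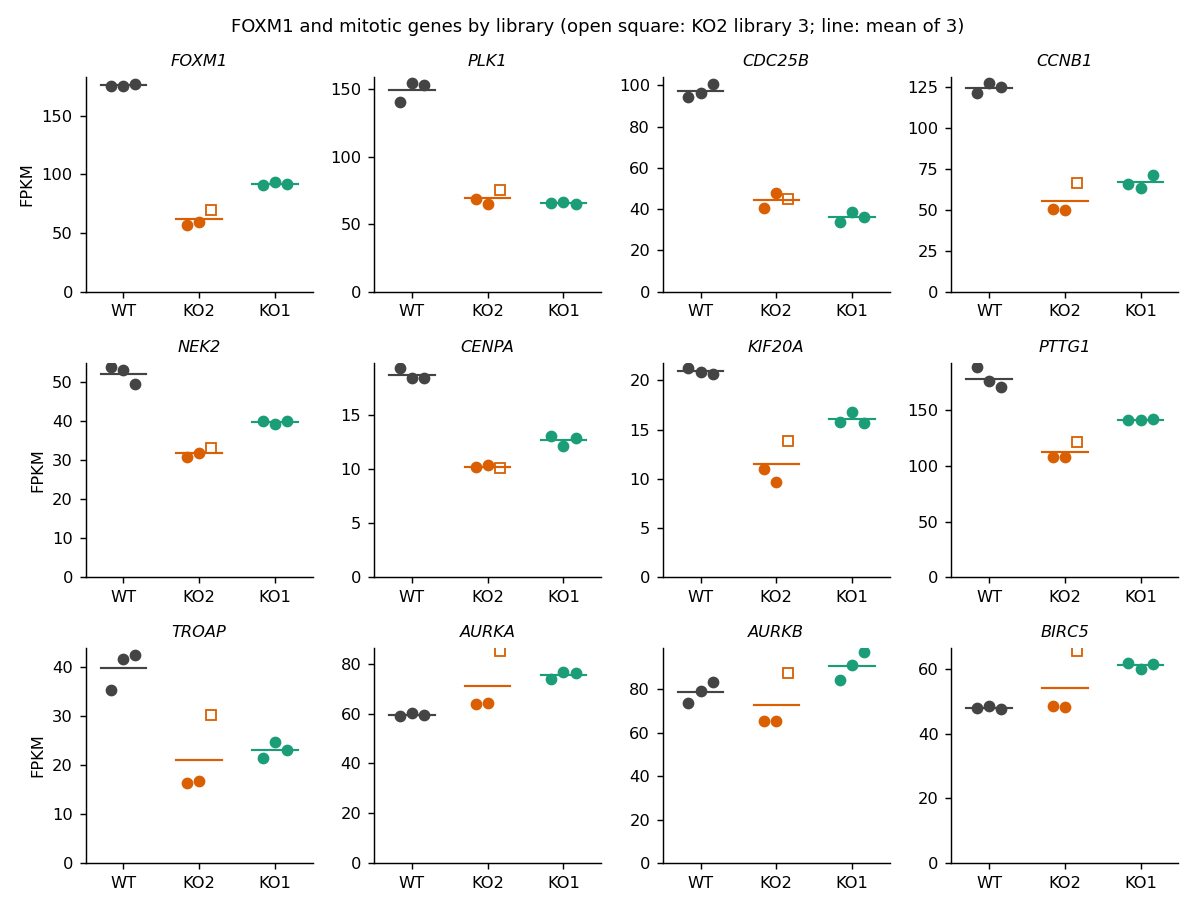
FPKM in each library of WT, KO2 and KO1 for FOXM1 and 11 mitotic genes. Points are libraries, lines are means of 3 and the open square is library 3 of KO2. FOXM1, PLK1, CDC25B and CCNB1 lie below WT in every KO2 library, while AURKA and BIRC5 do not.

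Against KO1, more mitotic genes were lower than higher in KO2. Of the 114 genes 42 were called lower in KO2 than in KO1 and 5 higher, beside 18.2% lower and 11.1% higher (1826 and 1109 genes) over all tested genes. Without library 3 of KO2 there were 86 lower and 8 higher, beside 38% and 22.9%. The comparison with WT and that with KO1 share the KO2 libraries. PLK1 levels in KO1 were 65.5, 66.3 and 65.2 FPKM and did not differ from KO2 beyond the spread (log2 0.08 ± 0.065, adjusted p = 0.362). CENPA was lower in KO2 than in KO1 (log2 −0.29 ± 0.053, adjusted p = 0.00144), as were KIF20A (log2 −0.46 ± 0.10, adjusted p = 0.00356) and NEK2 (log2 −0.31 ± 0.062, adjusted p = 0.00236). CDC25B was higher in KO2 than in KO1 (log2 0.28 ± 0.069, adjusted p = 0.00756). These 5 comparisons with KO1, and that of FOXM1, stayed on the same side of the threshold without library 3.

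The promoters of 4 of the fallen mitotic genes are shown because they hold the letters of the elements named above. Each line holds the 150 bases before the transcript start from RefSeq (GRCh38.p14, plus strand), with the cell cycle homology core, TTTGAA or TTTAAA, and the CCAAT box in capitals on either strand, so that TTCAAA and ATTGG are marked too.
CCNB1: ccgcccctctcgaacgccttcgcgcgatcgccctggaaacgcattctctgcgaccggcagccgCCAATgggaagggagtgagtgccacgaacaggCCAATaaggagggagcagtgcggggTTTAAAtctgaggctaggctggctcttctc
PLK1: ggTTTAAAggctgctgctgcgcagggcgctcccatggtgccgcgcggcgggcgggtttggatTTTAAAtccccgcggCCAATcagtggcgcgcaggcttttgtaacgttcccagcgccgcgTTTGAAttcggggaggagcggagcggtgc
KIF20A: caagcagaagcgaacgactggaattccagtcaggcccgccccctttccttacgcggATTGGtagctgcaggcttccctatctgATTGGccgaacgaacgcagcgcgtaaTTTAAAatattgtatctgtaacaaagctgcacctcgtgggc
CENPA: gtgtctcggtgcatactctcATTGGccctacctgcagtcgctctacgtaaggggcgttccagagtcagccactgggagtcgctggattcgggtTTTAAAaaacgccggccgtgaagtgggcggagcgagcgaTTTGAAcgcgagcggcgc
They lie at chr5:69167000-69167149, chr16:23678739-23678888, chr5:138178962-138179111 and chr2:26785906-26786055. Over the 250 bases before the start, a homology core was found in 14 of 20 fallen mitotic genes with a promoter in the table (70.0%), in 38 of 77 other tested mitotic genes (49.4%), in 13.7% of all tested genes and in 22.1% of all 27305 promoters. CCAAT was found in 16 of the 20 (80.0%), in 64.9% of the 77, in 36.9% of tested genes and in 33.0% of all promoters. Among all fallen genes with a promoter the homology core was in 17.9% of 621, and among all risen genes in 13.4% of 515. A match describes letters in this window and is not a measured binding site.

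Few DNA replication and repair genes fell in both fits, and more were called lower without library 3. Of 47 replication genes 6 fell (12.8%, beside 7.57% of all tested genes) and 0 rose, with a median of −0.12, and −0.24 without library 3. In the fit without library 3, 28 were called lower (59.6%, beside 16.5% of all tested genes) and 2 higher. The 6 depended on single libraries: 1 was called lower without WT library 2 or WT library 3, 3 without WT library 1 or KO2 library 2, and 0 in the fit to the KO2 and WT libraries alone. MCM2, a subunit of the replicative helicase, was at 57.1, 60.0 and 57.5 FPKM in WT and 38.2, 36.6 and 54.7 FPKM in KO2, with library 3 just below WT (log2 −0.45 ± 0.12, adjusted p = 0.0214, and −0.63 ± 0.063 without it). RRM2, the small subunit of ribonucleotide reductase, went from 128, 121 and 117 to 100.2, 101 and 90.02 FPKM (log2 −0.32 ± 0.066, adjusted p = 0.0046) and was lowest in library 3. TK1, thymidine kinase, and CHAF1B, a chromatin assembly subunit, fell by similar amounts (log2 −0.35 ± 0.083 and −0.28 ± 0.083). Of 22 E2F and G1/S genes 11 were called lower and 1 higher without library 3, and 4 fell in both fits (18.2%) and 0 rose, namely the repressor E2F7 (log2 −0.38 ± 0.072), the retinoblastoma gene RB1 (−0.27 ± 0.072), the activator E2F1 (−0.32 ± 0.10, adjusted p = 0.0419) and E2F8 (−0.27 ± 0.082, adjusted p = 0.0444), whereas E2F2 was called without library 3 alone (log2 −0.28 ± 0.073, adjusted p = 0.00968). Of that list 1 was called lower without WT library 1 or WT library 2 and in the fit to KO2 and WT alone, and 2 without KO2 library 1, KO2 library 2 or WT library 3. In homologous recombination and the Fanconi pathway 3 of 26 fell (11.5%) and 0 rose, and 13 were called lower and 0 higher without library 3. BRIP1 and RAD51AP1 changed by log2 −0.39 ± 0.067 and −0.33 ± 0.073 (adjusted p = 0.00146 and 0.00753), and the third, HLTF, a DNA translocase that remodels stalled forks, is among the largest falls. HLTF passed the filter through WT alone, so it had to differ and raises this list's share in advance. BRCA1 was called with all libraries (log2 −0.21 ± 0.063, adjusted p = 0.0383) but not without library 3 (adjusted p = 0.0538). Of 13 tested histone genes of the replication-dependent class 2 rose (15.4%, beside 6.3% of all tested genes), HIST1H2BK (log2 0.59 ± 0.13) and HIST2H2BE (0.37 ± 0.084). Transcripts of this class mostly lack poly-A tails, and the libraries were made by poly-A selection.

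Part of the calls lay next to each other on chromosomes. This pattern was looked for after the data were seen. The tested genes were placed in RefSeq order (only the order was used, since the files were made on build hg19) and divided into windows of 25 neighbours, and adjoining windows were joined where the median change reached 0.2 (log2) or more in the same direction with and without library 3. Windows with fewer than 20 genes, at chromosome ends, were left out. The last window of chromosome 7, from INSIG1 to WDR60 (11 genes), was left out for this reason. Its median was −0.255, and −0.39 without library 3. Windows were picked by these medians, so the counts inside them are a description. Lower stretches ran from POLR2J3 to PAXIP1 on chromosome 7 (150 genes, median log2 −0.33, 72 fallen), from ZMYND11 to BMS1 on chromosome 10 (100 genes, −0.27, 42 fallen) and from MTMR2 to GLB1L2 on chromosome 11 (121 genes, −0.37, 68 fallen). Higher stretches ran from IGLL1 to TTLL1 on chromosome 22 (150 genes, median 0.32, 63 risen), and from GPHN to DCAF4 and NEK9 to TMEM251 on chromosome 14 (25 and 50 genes, 0.30 and 0.27, 13 and 16 risen). The higher stretches have no sharp edges. Over all of chromosome 22, 87 of 243 tested genes rose (35.8%, median 0.30, and 0.23 without library 3). On chromosome 14 the window between the stretches had a median of 0.18, and those after them 0.20, 0.31 and 0.35. Without library 3 these were 0.17, 0.13, 0.08 and 0.21. In the lower stretches 182 of the 758 fallen genes were found (24.01%), though these hold 3.71% of tested genes, and in the higher stretches 92 of the 631 risen genes (14.6%), where 2.25% of tested genes lie.

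Library 3 of KO2 showed shifts in the same direction in these stretches. All 3 KO2 libraries entered the medians that picked the windows, so their likeness is a description. On chromosome 7 the median difference from WT was −0.34, −0.33 and −0.34 in KO2 libraries 1, 2 and 3, on chromosome 10 it was −0.33, −0.30 and −0.30, on chromosome 11 −0.45, −0.42 and −0.37, and on chromosome 22 0.26, 0.27 and 0.38. On chromosome 14 it was 0.25, 0.27 and 0.33 from GPHN to DCAF4 and 0.22, 0.25 and 0.25 from NEK9 to TMEM251. In KO1 the medians against WT were 0.03, 0.07 and 0.04 in the lower stretches of chromosomes 7, 10 and 11. They were −0.05 in the higher stretch of chromosome 22 and −0.07 and −0.11 in those of chromosome 14. The windows of the longer chromosome 14 stretch had medians of 0.05 and −0.17 in KO1. Single windows varied around these values in KO1, from −0.11 to 0.19 on chromosome 7, −0.04 to 0.20 on chromosome 10, −0.05 to 0.11 on chromosome 11 and −0.36 to 0.08 on chromosome 22, where the window that starts at IGLL1 had a median of −0.36 in KO1 and 0.36 in KO2. The difference between the clones, to which shifts in KO1 also contribute, was called lower in KO2 for 94 of 150 genes on chromosome 7, 59 of 100 on chromosome 10 and 81 of 121 on chromosome 11, and higher for 83 of 150 on chromosome 22. In the chromosome 14 stretches it was called higher for 16 of 25 and 29 of 50 genes, and lower for 0 and 3. Over all tested genes 18.2% were called lower and 11.1% higher in KO2 than in KO1. The stretches were picked on the same KO2 libraries, so larger shares inside them are partly built in. DNA copy number was not measured and its part in these shifts was not tested. Of the genes named here, MASTL, PFKP, PLXDC2 and BMI1 lie in the chromosome 10 stretch, NCAM1, NRGN, ATP5MG, SDHD, RPS25, ACAD8, HSPA8 and BIRC2 in that of chromosome 11, GSTK1, EZH2, DLD, CREB3L2 and NDUFA5 in that of chromosome 7, LGALS1, RAC2, ST13, PES1, ATF4 and XBP1 in that of chromosome 22, and EIF2S1, PSMC1 and AHSA1 in those of chromosome 14. Of the 23 fallen members of the mitotic lists 22 lie outside the stretches, MASTL being the exception.

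**Figure D2:**
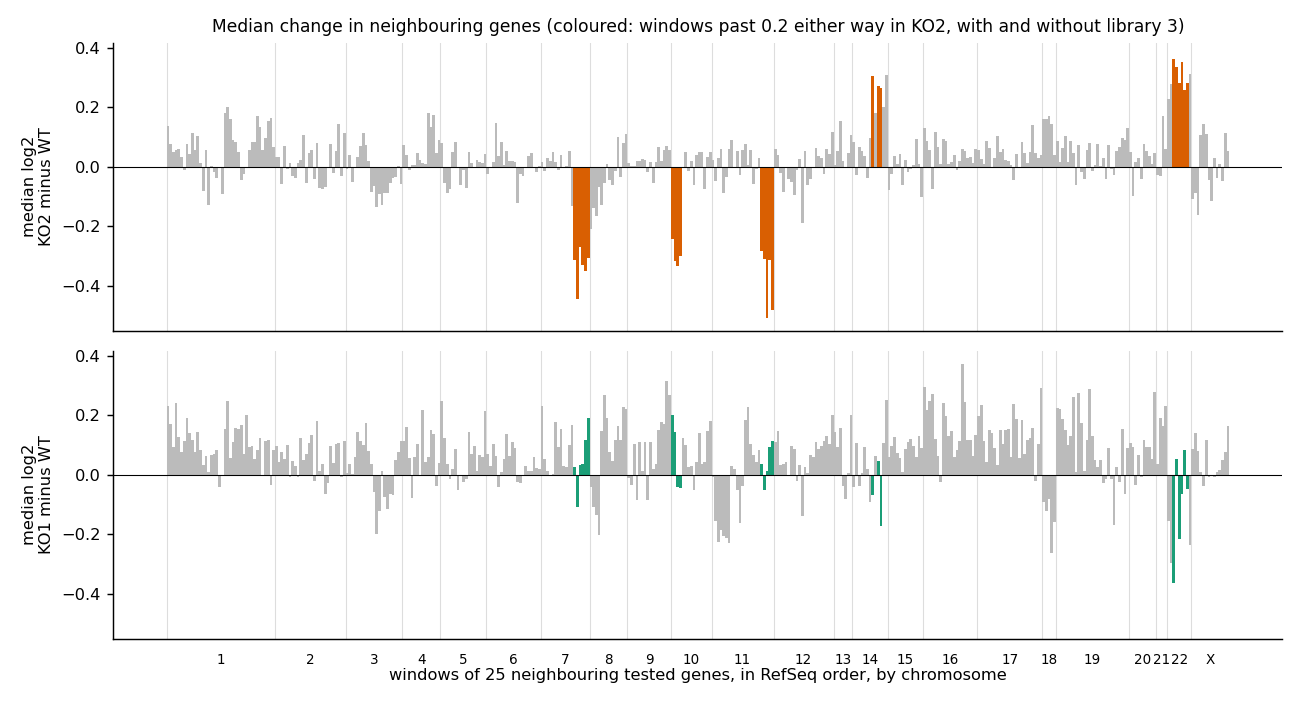
Median log2 change against WT in windows of 25 neighbouring tested genes, ordered by chromosome, for KO2 above and KO1 below. Windows with fewer than 20 genes are not shown. Bars in colour are the 15 lower and 9 higher windows, among those shown, that passed 0.2 in KO2 with and without library 3. The same windows are coloured in the KO1 panel, where their medians run from −0.36 to 0.20.

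The largest rises in KO2 were in genes of diverse kinds. PDIA2, a protein disulfide isomerase, stood at 5.54, 5.93 and 7.10 FPKM in WT and 100.2, 95.8 and 111 FPKM in KO2, with every KO2 library far above WT (log2 3.85 ± 0.085, adjusted p = 6.79e-12). In KO1 it was at 30.3, 29.8 and 34.0 FPKM, below KO2 (log2 1.67 ± 0.085, adjusted p = 2.41e-08). EEF1A2, the translation elongation factor form of nerve and muscle, went from 47.4, 49.6 and 52.6 to 291, 284 and 351 FPKM (log2 2.60 ± 0.081, adjusted p = 2.28e-10) and was higher still in KO1, at 521, 565 and 573 FPKM. Its near-identical relative EEF1A1, with which reads could be shared, was at 7816, 7479.7 and 7376 FPKM in WT and 6847, 6772 and 5043 FPKM in KO2 and did not pass (adjusted p = 0.0912). PNMA5, of the paraneoplastic antigen family, was at 0.30, 0.35 and 0.25 FPKM in WT and 12.8, 12.5 and 9.71 FPKM in KO2, and ARHGDIG, a regulator of small GTPases, at 0.26, 0.06 and 0.13 FPKM in WT against 11.5, 9.27 and 7.10 FPKM in KO2. Both were below 1 FPKM in every WT library and thus passed the filter through KO2 alone (log2 3.28 ± 0.14 and 3.14 ± 0.14). MAGEA9B, a cancer-testis antigen whose reads may belong to its twin copy MAGEA9, rose from 1.89, 2.27 and 1.52 to 9.78, 8.86 and 9.06 FPKM (log2 1.83 ± 0.23, adjusted p = 0.000118).

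For AFAP1L2, PCP4, JAG2 and ZNF544 library 3 lay well above the other KO2 libraries. AFAP1L2, a Src-binding adaptor, was at 17.7, 18.0 and 89.8 FPKM in KO2 against 9.01, 8.35 and 8.40 FPKM in WT (log2 1.73 ± 0.43, adjusted p = 0.0162), and the change was 0.98 ± 0.13 without library 3. PCP4, a calmodulin-binding peptide, was at 3.46, 3.03 and 3.44 FPKM in WT and 22.9, 19.1 and 45.2 FPKM in KO2 (log2 2.71 ± 0.23, and 2.35 ± 0.12 without library 3). JAG2, a Notch ligand, was at 1.12, 1.48 and 1.57 FPKM in WT against 3.66, 3.53 and 8.36 FPKM in KO2 (log2 1.29 ± 0.21, and 0.95 ± 0.10), and ZNF544, a zinc finger gene, at 1.28, 1.16 and 1.30 FPKM in WT against 5.42, 4.80 and 8.11 FPKM in KO2 (log2 1.63 ± 0.12, and 1.44 ± 0.07). NLRP11, a gene of the NLR family, rose from 3.33, 3.22 and 3.31 to 25.5, 24.4 and 16.5 FPKM, with library 3 the lowest of KO2 (log2 2.41 ± 0.12, adjusted p = 2.57e-08). LGALS1, galectin-1, rose from 246, 248 and 266 to 696, 647 and 449 FPKM (log2 1.21 ± 0.13, adjusted p = 3.9e-05), again least in library 3. VAV1, a guanine nucleotide exchange factor of lymphocytes, rose in all KO2 libraries alike, from 2.86, 2.64 and 2.60 to 8.80, 7.91 and 9.49 FPKM (log2 1.39 ± 0.068, adjusted p = 1.9e-08). MTMR11, of the myotubularin family, and HRASLS2, a phospholipid acyltransferase, also rose (log2 1.52 ± 0.13 and 1.25 ± 0.15, adjusted p = 3.87e-06 and 7.24e-05).

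Among the largest falls, several genes came close to absence. GSTM1, a glutathione transferase with close relatives, was at 9.36, 7.85 and 9.28 FPKM in WT and 0.28, 0.54 and 0.42 FPKM in KO2 (log2 −2.80 ± 0.13, adjusted p = 8.87e-09). HLTF was at 6.98, 6.16 and 5.89 FPKM in WT and 0.45, 0.60 and 0.32 FPKM in KO2 (log2 −2.34 ± 0.085, adjusted p = 1.02e-09), and KO1 held a like level of 0.34, 0.55 and 0.50 FPKM (KO2 against KO1 log2 −0.01 ± 0.085, adjusted p = 0.956). SLC43A3, a nucleobase transporter, fell from 22.4, 22.5 and 22.7 to 2.62, 2.33 and 3.37 FPKM (log2 −2.65 ± 0.08, adjusted p = 2.28e-10). DKK1, the Wnt inhibitor linked to bone disease in myeloma, fell from 6.68, 6.27 and 6.50 to 1.62, 1.30 and 1.14 FPKM (log2 −1.67 ± 0.09, adjusted p = 5.24e-08), and in KO1 it was at 2.95, 2.37 and 2.47 FPKM. For each of these 4 genes the KO2 libraries lay together and far below WT, and GSTM1 and HLTF were below 1 FPKM in all of them, so that they passed the filter through WT alone.

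In another set of falls library 3 was lower than the other KO2 libraries. TSPAN7, a tetraspanin, was at 105, 108 and 109 FPKM in WT and 37.4, 33.8 and 9.19 FPKM in KO2 (log2 −2.18 ± 0.39, adjusted p = 0.00211, and −1.57 ± 0.21 without library 3). LILRB4, an inhibitory leukocyte receptor, was at 67.5, 71.8 and 69.9 FPKM in WT against 28.6, 28.9 and 11.1 FPKM in KO2 (log2 −1.68 ± 0.26, and −1.25 ± 0.093), and BMF, a BH3-only cell death protein, at 42.7, 41.2 and 43.1 FPKM in WT against 21.3, 21.7 and 9.39 FPKM in KO2 (log2 −1.32 ± 0.23, and −0.95 ± 0.12). PLXDC2, a membrane protein, and ACAA2, a mitochondrial thiolase, followed the same order (log2 −1.45 ± 0.19 and −1.28 ± 0.17, and −1.16 ± 0.11 and −1.06 ± 0.13 without library 3). NCAM1, CD56, fell from 121, 125 and 121 to 49.0, 50.8 and 42.8 FPKM in all libraries alike (log2 −1.35 ± 0.074, adjusted p = 5.82e-08), and BST2, tetherin, from 129.8, 131 and 138 to 49.9, 51.6 and 60.8 FPKM (log2 −1.29 ± 0.081, adjusted p = 2.37e-07). NRGN, neurogranin, and PAGE5, a cancer-testis antigen, also fell (log2 −1.25 ± 0.13 and −1.24 ± 0.08, adjusted p = 2.33e-05 and 3.39e-07).

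**Figure D3:**
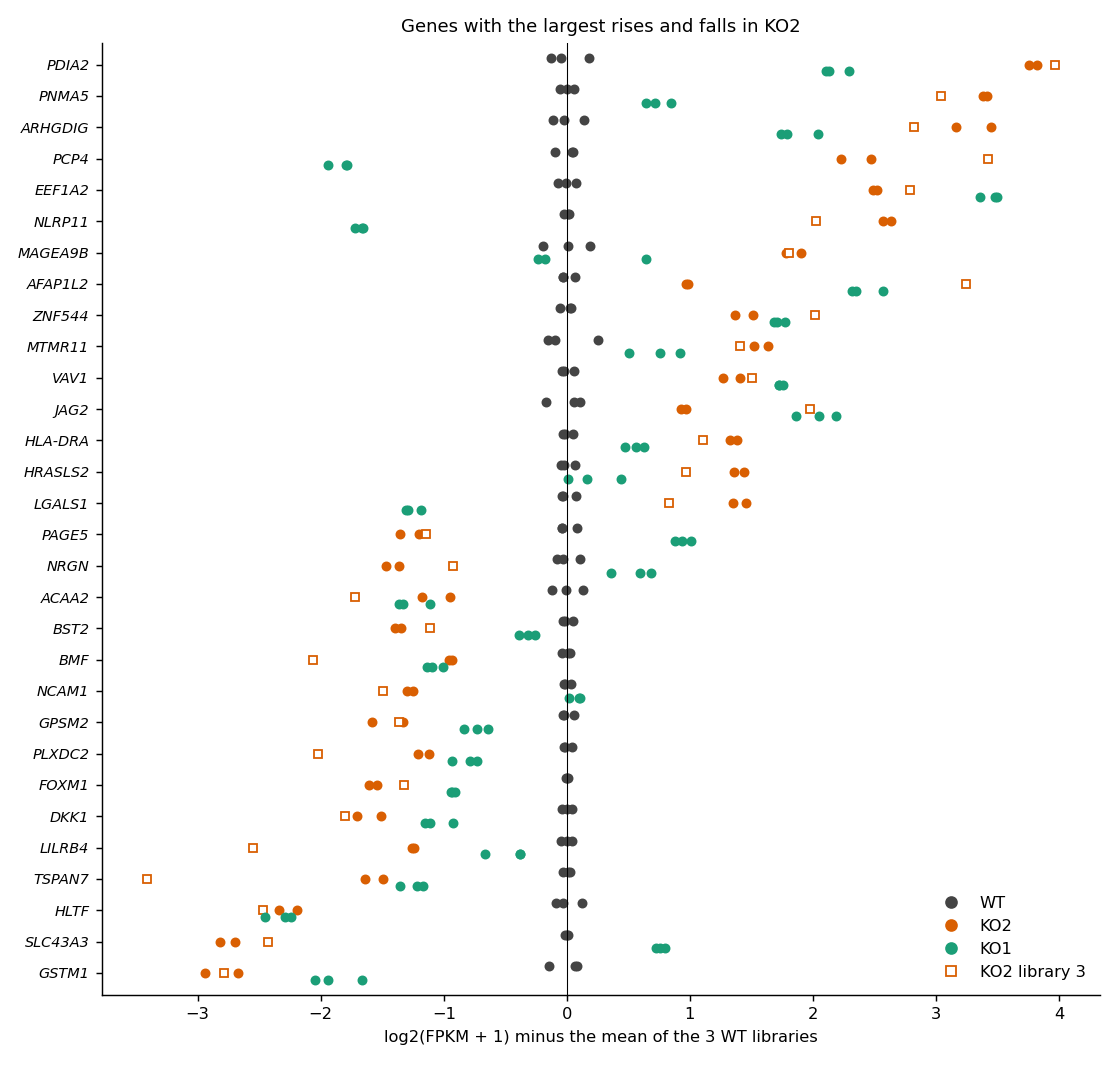
Each library's log2(FPKM + 1) minus the WT mean for the 15 largest rises and 15 largest falls in KO2, FOXM1 among them. WT, KO2 and KO1 libraries are points and library 3 of KO2 is the open square; it lies away from the other KO2 libraries for AFAP1L2, TSPAN7, LILRB4 and BMF and with them for HLTF, VAV1 and GPSM2.

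Some genes of glucose uptake and glycolysis fell, and some of cholesterol synthesis rose. Of 21 glycolysis genes 4 fell (19%, beside 7.57% of all tested genes) and 1 rose (4.76%, beside 6.3%), and without library 3 there were 9 called lower and 2 higher. SLC2A1, the glucose transporter GLUT1, went from 19.4, 19.9 and 19.1 to 9.95, 9.70 and 9.80 FPKM, with the KO2 libraries close together (log2 −0.92 ± 0.061, adjusted p = 3.56e-07). HK2, hexokinase 2, fell from 35.3, 36.4 and 35.4 to 17.1, 17.7 and 22.2 FPKM (log2 −0.88 ± 0.10, adjusted p = 6.54e-05) and LDHA, lactate dehydrogenase A, from 516, 495 and 496 to 359, 338 and 385 FPKM (log2 −0.48 ± 0.058, adjusted p = 8.94e-05). PFKP, a phosphofructokinase, fell from 110.2, 115 and 120.1 to 75.7, 76.2 and 112 FPKM, with library 3 inside the WT range (log2 −0.40 ± 0.12, adjusted p = 0.0339), and SLC16A3, a lactate exporter, rose from 2.44, 2.89 and 3.34 to 5.52, 4.84 and 5.77 FPKM (log2 0.72 ± 0.12, adjusted p = 0.0011). The list's median was −0.01, and −0.13 without library 3.

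In cholesterol synthesis 8 of 26 genes rose (30.8%, beside 6.3% of all tested genes) and 0 fell, and 18 were called higher without library 3 (69.2%, beside 14.4%), with a median of 0.22, and 0.28 without it. Without WT library 2 or WT library 3 there were 2 called higher, without WT library 1 there were 3, without KO2 library 1 or 2 there were 4, and the fit to KO2 and WT alone called 1. HSD17B7, an enzyme of the late pathway, went from 17.3, 17.6 and 17.6 to 26.8, 28.1 and 23.4 FPKM (log2 0.55 ± 0.073, adjusted p = 0.000214). SQLE, squalene epoxidase, was at 85.3, 79.4 and 77.2 FPKM in WT and 133, 131 and 85.3 FPKM in KO2, where library 3 was level with the highest WT library (log2 0.50 ± 0.14, adjusted p = 0.0299). MVD and NSDHL, enzymes early and late in the pathway, also rose (log2 0.38 ± 0.11 and 0.30 ± 0.078). HMGCS1, at the head of the pathway, was at 21.2, 18.9 and 19.1 FPKM in WT and 36.1, 37.4 and 17.0 FPKM in KO2 and was called without library 3 alone (log2 0.87 ± 0.10, adjusted p = 2.18e-05). Fatty acid synthesis had 1 of 13 genes risen (7.69%), ELOVL6 (log2 0.55 ± 0.13), and fatty acid oxidation 2 of 24 risen (8.33%) and 4 fallen (16.7%), with 3 called higher and 9 lower without library 3. ETFB, an electron carrier of beta-oxidation, fell from 7.23, 6.63 and 8.92 to 3.26, 3.63 and 1.51 FPKM (log2 −1.22 ± 0.21, adjusted p = 0.0015), as did the dehydrogenase ACAD8 (log2 −0.44 ± 0.059), while the isomerase ECI2 and the dehydrogenase ACADVL rose (log2 0.37 ± 0.055 and 0.31 ± 0.073).

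Of 76 oxidative phosphorylation genes 4 fell (5.26%, beside 7.57% of all tested genes) and 0 rose. Of the list 2 were called lower without KO2 library 1, KO2 library 2, WT library 1 or WT library 2. Without library 3 there were 26 called lower (34.2%, beside 16.5% of all tested genes) and 1 higher (1.32%, beside 14.4%). The list's median was 0.03, and −0.11 without library 3. ATP5MG, an ATP synthase subunit, fell from 147, 141 and 139 to 86.2, 87.9 and 97.5 FPKM (log2 −0.65 ± 0.063, adjusted p = 1.5e-05), as did SDHD of complex II, NDUFA5 of complex I and COX8A of complex IV (log2 −0.31 ± 0.064, −0.31 ± 0.088 and −0.25 ± 0.077). Of those 4 genes, COX8A is the one outside the stretches of neighbouring genes. In the tricarboxylic acid cycle 3 of 19 fell (15.8%), DLD (log2 −0.40 ± 0.071), SUCLG2 (−0.41 ± 0.09) and CS (−0.25 ± 0.065), and 2 rose (10.5%), among them IDH3G (0.20 ± 0.059). Without library 3 of KO2 9 of the 19 were called lower and 2 higher.

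The ER and stress lists turned on library 3. The mean log2 level of the ER folding and XBP1 list was 6.62, 6.58 and 6.58 in WT and 7.10, 7.10 and 5.95 in KO2, so that libraries 1 and 2 of KO2 lay above WT and library 3 below it. Of 56 such genes 1 rose with all libraries, SSR4 (log2 0.33 ± 0.07, adjusted p = 0.00687), while 42 were called higher and 0 lower without library 3 (median 0.13, and 0.46 without it), beside 14.4% and 16.5% of all tested genes. HSPA5, the ER chaperone BiP, was at 161, 151 and 149.8 FPKM in WT and 247, 254 and 106 FPKM in KO2. Libraries 1 and 2 of KO2 thus stood above all WT libraries and library 3 below them (log2 0.29 ± 0.23, adjusted p = 0.457, and 0.70 ± 0.046, adjusted p = 6.67e-08, without library 3). SDF2L1, an ER chaperone cofactor, was at 36.6, 44.8 and 45.0 FPKM in WT against 94.3, 86.7 and 39.3 FPKM in KO2, and FKBP11, a secretory prolyl isomerase, at 139, 140.5 and 148 FPKM in WT against 299, 289.7 and 134 FPKM in KO2 (log2 1.09 ± 0.089 and 1.04 ± 0.12 without library 3, adjusted p = 4.61e-07 and 1.01e-05). EDEM3 had the same order (log2 0.44 ± 0.062, adjusted p = 8.28e-05), and CREB3L2 did not pass in either fit (adjusted p = 0.0952 and 0.1). XBP1 itself was at 1403, 1368 and 1411 FPKM in WT and 1489.6, 1452 and 1304 FPKM in KO2 and did not pass in either fit (adjusted p = 0.916 and 0.563).

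Genes of the ATF4 and CHOP branch showed the widest gap between the KO2 libraries among the lists with 10 or more tested members, with a mean log2 level of 6.41, 6.42 and 6.43 in WT and 6.62, 6.61 and 5.01 in KO2. No member of 42 was called with all libraries. Without library 3 there were 3 called higher (7.14%, below the 14.4% of all tested genes). The list's median was −0.40, and 0.14 without library 3. DDIT3, which encodes CHOP, was at 53.4, 50.3 and 54.3 FPKM in WT and 79.3, 81.1 and 7.04 FPKM in KO2. TRIB3, a CHOP target, was at 58.5, 59.9 and 62.2 FPKM in WT against 114, 116 and 11.4 FPKM in KO2, INHBE at 77.1, 79.3 and 79.8 FPKM in WT against 100.0, 96.4 and 6.62 FPKM in KO2, and CHAC1, a glutathione-degrading enzyme, at 77.4, 83.7 and 86.7 FPKM in WT against 91.9, 90.7 and 11.3 FPKM in KO2. ASNS, asparagine synthetase, was at 268, 237 and 254 FPKM in WT against 294, 298 and 58.8 FPKM in KO2, and ATF4 at 997, 1002 and 1016 FPKM in WT against 1329.5, 1279 and 506 FPKM in KO2. In each of these 6 genes libraries 1 and 2 of KO2 stood above every WT library and library 3 below them all, and none passed in either fit (adjusted p = 0.689, 0.912, 0.512, 0.467, 0.505 and 0.885 with all libraries, and 0.265, 0.111, 0.683, 0.843, 0.524 and 0.0694 without library 3). The spread that the fit pools over 15 libraries includes that of an empty-vector library of KO1, KO1EV library 3. With it left out as well, DDIT3, TRIB3, INHBE, ASNS and ATF4 were called higher (adjusted p from 6.78e-08 for TRIB3 to 0.00838 for ASNS) and CHAC1 was not (adjusted p = 0.157). That fit called 1961 of the 10010 tested genes higher, and KO2 was represented in it by libraries 1 and 2 alone. In library 3 of KO2, 32 of the 56 ER genes and 31 of the 42 ATF4 and CHOP genes were at least 2-fold below both other KO2 libraries. CDKN1A, the CDK inhibitor p21, went the same way, at 17.9, 16.7 and 18.0 FPKM in WT and 34.2, 33.0 and 7.41 FPKM in KO2 (log2 0.90 ± 0.16, adjusted p = 0.000527, without library 3, and 0.764 with it). CDKN2B, another CDK inhibitor, was at 3.53, 4.07 and 4.06 FPKM in WT against 8.97, 8.93 and 3.54 FPKM in KO2 (adjusted p = 0.0664, and 2.91e-07 without library 3).

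Cytosolic chaperones and nucleolar genes went the other way in library 3. HSPA8, the constitutive HSC70 chaperone, was at 455, 440.2 and 435 FPKM in WT and 352, 349.7 and 1495 FPKM in KO2 (adjusted p = 0.627, and 0.188 without library 3). AHSA1, the HSP90 activator, was at 93.8, 87.0 and 88.7 FPKM in WT against 109, 111 and 234 FPKM in KO2 and DNAJB1 at 42.4, 42.8 and 42.4 FPKM in WT against 45.9, 43.4 and 89.0 FPKM in KO2. In all 3 genes library 3 lay above every WT library, and for HSPA8 and DNAJB1 the other KO2 libraries were below or within a few FPKM of WT. HSPA1A, the inducible HSP70 gene, stayed under the filter. In library 3, 8 of 40 heat shock chaperones and 12 of 40 ribosome biogenesis genes were at least 2-fold above both other KO2 libraries. Of the chaperone genes 3 rose (7.5%) and of the ribosome biogenesis genes 2 (5%), beside 6.3% of all tested genes, and 0 fell; without WT library 2 or WT library 3 there was 1 chaperone gene called higher. The chaperone genes that rose were ST13 (log2 0.49 ± 0.072), HSPD1 (0.32 ± 0.082) and CCT4 (0.23 ± 0.071), and the ribosome biogenesis genes were PES1 (0.65 ± 0.16) and DDX18 (0.37 ± 0.089). The KO1 libraries were on the same side of WT as library 3 for some of these genes, with HSPA8 at 937, 811 and 841 FPKM, DDIT3 at 17.4, 18.6 and 21.4 FPKM and HSPA5 at 111, 108 and 107 FPKM. No label sets library 3 apart from the other KO2 libraries, and what moved it was not tested.

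**Figure D4:**
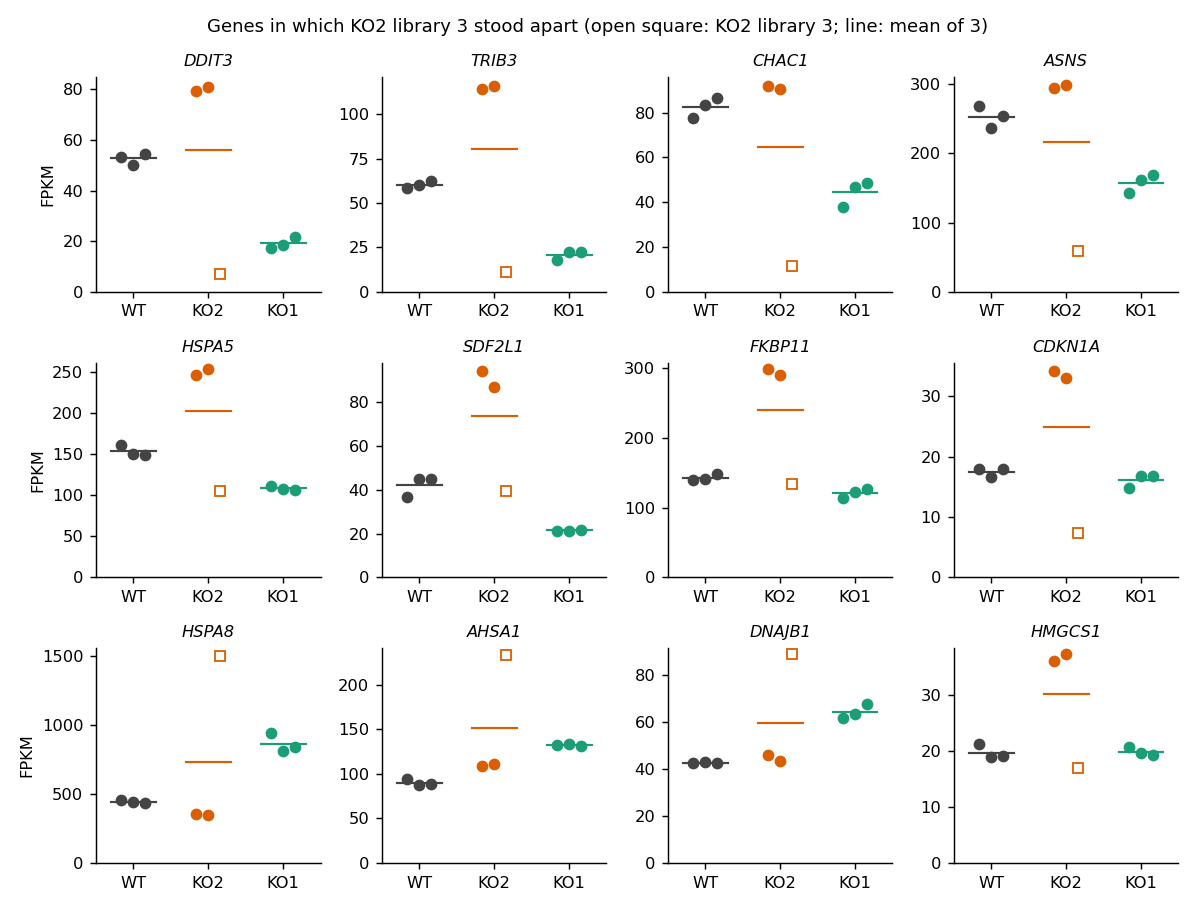
FPKM in each library of WT, KO2 and KO1 for 12 genes of ER stress, the ATF4 branch, cytosolic chaperones, p21 and HMGCS1. Points are libraries, lines are means of 3 and the open square is library 3 of KO2, which is below the WT mean for DDIT3, TRIB3, CHAC1 and HSPA5 and above it for HSPA8, AHSA1 and DNAJB1.

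**Figure D5:**
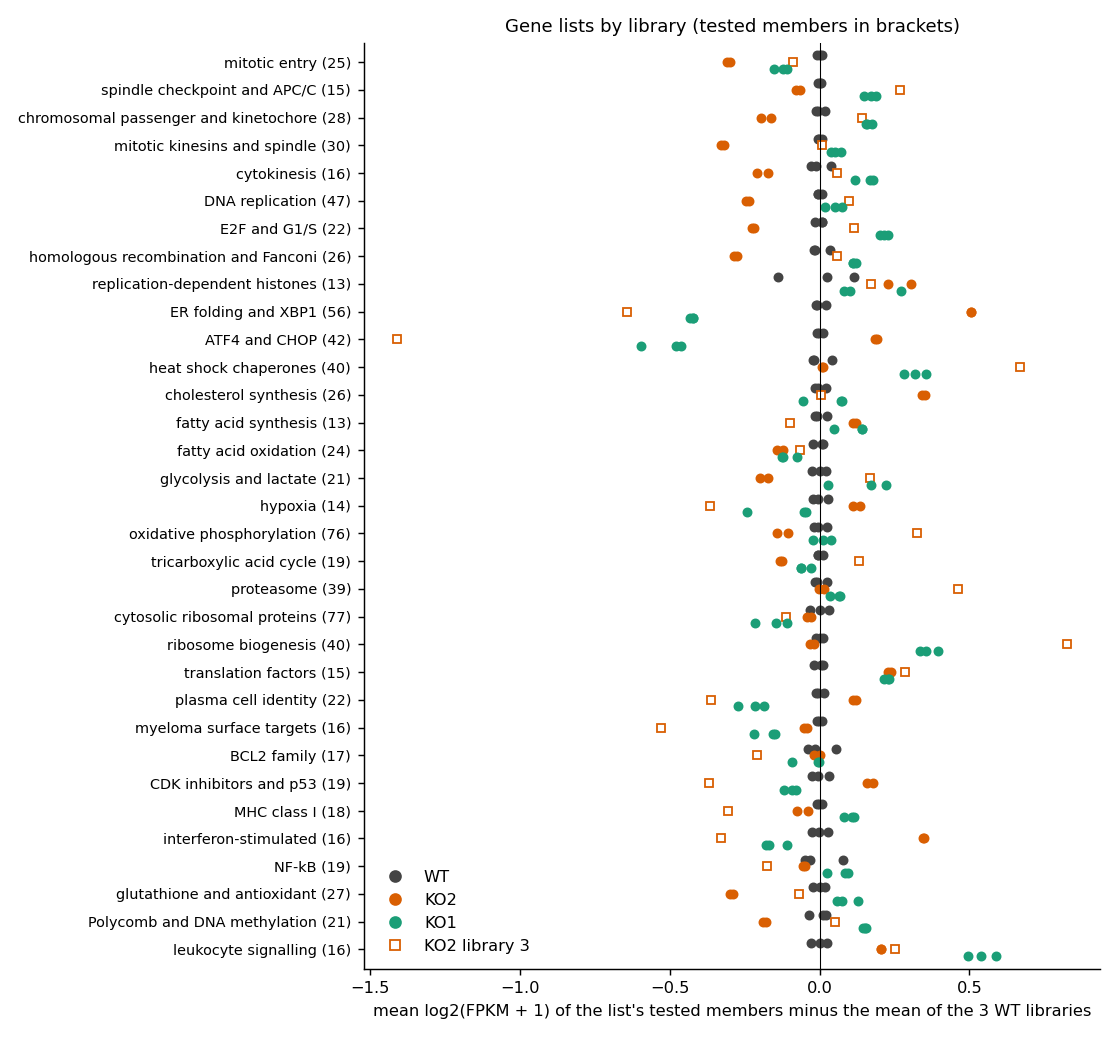
Mean log2(FPKM + 1) of the tested members of each gene list with 10 or more tested members, by library, minus the WT mean. Libraries 1 and 2 of KO2 lie together below WT for mitotic entry, spindle, replication and repair lists and above it for ER folding and cholesterol synthesis, and the open square of library 3 lies apart, most for ATF4 and CHOP.

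Plasma cell genes changed in both directions. Of 22 identity genes 5 fell (22.7%, beside 7.57% of all tested genes) and 3 rose (13.6%, beside 6.3%), and without library 3 there were 7 called lower and 6 higher. The fit to the KO2 and WT libraries alone called 0 lower and 0 higher. SDC1, syndecan-1 or CD138, went from 215, 222 and 225 to 186, 179.6 and 168 FPKM (log2 −0.31 ± 0.061, adjusted p = 0.00369), PRDM1, the plasma cell repressor BLIMP-1, from 123, 131 and 127 to 106, 107 and 82.5 FPKM (log2 −0.37 ± 0.091, adjusted p = 0.0142) and ELL2, an elongation factor for antibody transcripts, from 19.9, 18.5 and 18.4 to 13.7, 13.6 and 10.2 FPKM (log2 −0.57 ± 0.088, adjusted p = 0.000606). MEF2C, a transcription factor of the B lineage, fell too (log2 −0.34 ± 0.065). CD38, an ectoenzyme and antibody target, rose from 11.3, 10.4 and 10.4 to 19.4, 19.3 and 12.4 FPKM, with library 3 nearest to WT (log2 0.60 ± 0.13, adjusted p = 0.00883). IRF4, TNFRSF17 (BCMA) and MYC did not pass in either fit (adjusted p = 0.279, 0.673 and 0.688 with all libraries, and 0.905, 0.464 and 0.633 without library 3). FGFR3, the translocation target, rose from 581, 629 and 673 to 839.7, 810.5 and 698 FPKM (log2 0.32 ± 0.091, adjusted p = 0.0332). The FGFR3 call was lost without KO2 library 1 or 2, without WT library 1 or 2, and in the fit to KO2 and WT alone. NSD2 was at 102, 102 and 102 FPKM in WT against 86.2, 90.3 and 101 FPKM in KO2 (adjusted p = 0.179, and 0.00627 without library 3), and CCND2, cyclin D2, was at 83.6, 81.5 and 83.6 FPKM in WT against 94.5, 98.8 and 81.6 FPKM in KO2 (adjusted p = 0.3 and 0.0258).

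Surface and signalling genes likewise split. Of 16 myeloma surface targets 5 fell (31.2%, beside 7.57% of all tested genes) and 3 rose (18.8%, beside 6.3%), and without library 3 there were 6 called lower and 4 higher. CD44, a hyaluronan receptor, fell from 11.5, 11.1 and 10.7 to 6.81, 6.58 and 5.44 FPKM (log2 −0.74 ± 0.093, adjusted p = 0.000127), whereas KO1 was at 19.2, 20.5 and 19.5 FPKM, above both (KO2 against KO1 log2 −1.52 ± 0.093, adjusted p = 1.23e-07). The integrin gene ITGA4 and the phagocytosis checkpoint gene CD47 fell too (log2 −0.33 ± 0.064 and −0.41 ± 0.078). Of 16 leukocyte signalling genes 4 rose and 4 fell (25% each), with 4 called higher and 6 lower without library 3; 3 were called lower without WT library 2 or WT library 3. THEMIS, a T cell signalling adaptor, was listed at 0.03, 0.10 and 0.03 FPKM in WT and was at 2.67, 2.11 and 5.30 FPKM in KO2 (log2 1.98 ± 0.18, adjusted p = 7.72e-06), RAC2, a haematopoietic small GTPase, rose (log2 0.46 ± 0.073), and PTPN6, the phosphatase SHP-1, fell (log2 −0.46 ± 0.069). In MHC class II 3 of 7 tested genes rose (42.9%, beside 6.3% of all tested genes), all at low levels, and the same number was called without library 3. HLA-DRA was at 5.37, 5.77 and 5.44 FPKM in WT and 16.1, 15.3 and 13.0 FPKM in KO2 (log2 1.27 ± 0.074, adjusted p = 1.11e-07), HLA-DRB1 at 0.15, 0.14 and 0.30 FPKM in WT against 1.36, 1.53 and 1.35 FPKM in KO2 and HLA-DPA1 at 0.57, 0.96 and 0.87 FPKM in WT against 2.45, 2.37 and 1.13 FPKM in KO2. THEMIS and ARHGDIG of the leukocyte list, and HLA-DRB1 and HLA-DPA1, passed the filter through KO2 alone. Such genes have to differ and raise the shares of risen genes in advance, and HLA-DRA is the risen class II gene that did not pass in this way. Reads of HLA genes may be shared with relatives. CIITA, the class II activator, and CD74, the invariant chain, stayed under the filter, with CIITA at 0.41, 0.52 and 0.50 FPKM in WT and 0.69, 0.74 and 0.55 FPKM in KO2 and CD74 at 0.38, 0.47 and 0.39 FPKM in WT against 1.08, 1.13 and 0.85 FPKM in KO2.

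Of 17 BCL2 family genes 1 fell and 2 rose (5.88% and 11.8%, beside 7.57% and 6.3% of all tested genes), and without library 3 there were 3 called lower and 4 higher. BMF fell, and BCL2L11, which encodes BIM, and BCL2L13 rose (log2 0.37 ± 0.07 and 0.34 ± 0.052, adjusted p = 0.00294 and 0.000546). MCL1 and BCL2L1 were called higher without library 3 alone (log2 0.25 ± 0.056 and 0.34 ± 0.086, adjusted p = 0.00298 and 0.00826), and BCL2 was not called in either fit (adjusted p = 0.212 and 0.56). Of 27 antioxidant genes 5 fell (18.5%, beside 7.57% of all tested genes) and 1 rose (3.7%, beside 6.3%). GSTM1 is among the 5 and passed the filter through WT alone. It therefore had to differ and raises the share of fallen genes in advance. Without library 3 there were 14 antioxidant genes called lower (51.9%, beside 16.5%) and 2 higher. GSTK1, a mitochondrial glutathione transferase, fell from 109, 111 and 116 to 63.9, 62.1 and 65.6 FPKM (log2 −0.80 ± 0.063, adjusted p = 1.78e-06). PRDX2, a cytosolic peroxiredoxin, fell from 125, 119 and 129 to 69.4, 64.3 and 77.4 FPKM (log2 −0.82 ± 0.073, adjusted p = 7.11e-06), and stood at 229, 241 and 252 FPKM in KO1. MGST3, a membrane-bound glutathione transferase, fell (log2 −0.43 ± 0.07), and PRDX4, the ER peroxiredoxin, rose (log2 0.49 ± 0.065). Of 21 Polycomb and DNA methylation genes 5 fell (23.8%) and 0 rose, with 9 called lower and 1 higher without library 3; 3 were called lower without KO2 library 1, KO2 library 2, WT library 1 or WT library 2. EZH2, the Polycomb methyltransferase, fell from 60.8, 61.7 and 61.6 to 39.5, 37.4 and 46.4 FPKM (log2 −0.57 ± 0.072, adjusted p = 0.000127) and was at 73.7, 72.9 and 74.9 FPKM in KO1. The Polycomb genes BMI1, PHC1 and JARID2 and the DNA demethylase gene TET1 fell too (log2 −0.43 ± 0.069, −0.43 ± 0.069, −0.23 ± 0.069 and −0.26 ± 0.072).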

How the data were processed

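RNA of OPM2 clones was selected for poly-A and read as paired ends on a DNBseq instrument, per the labels' protocols. The authors deposited FPKM per gene, not counts. The build was hg19 per the submitters' processing notes, and no aligner or counter is given in the sources used here. Of 16407 gene IDs 16368 were in the RefSeq table, and 23 symbols turned into dates were restored by ID.

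Values were tested as log2(FPKM + 1) with limma 3.58.1 in R 4.3.3 (trended variance), in 1 fit over the 15 OPM2 libraries, two-sided, with Benjamini-Hochberg adjustment over the 10010 genes tested and no replicate block, and refitted without library 3 of KO2. The script was tested on simulated data. Deviations from the group means correlated little between KO2 and WT libraries of equal number (r = 0.06, −0.04 and 0.08). Library 3 dominates these deviations in KO2, so the values cannot decide whether equal numbers are paired. Named genes were FOXM1, the 15 largest rises and 15 largest falls called in both fits (mean of 5 FPKM or more in KO2 or WT, no overlap of groups), up to 5 members of each list, called first, by adjusted p, and a fixed set. Members, lists and rules were chosen with earlier results of these data known. Results for a few genes are not reported here.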

Additional observations from a re-analysis of the deposited data

Results flagged for a closer look

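The 2 knockout clones moved in opposite directions from WT for 6 of the largest changes in KO2, and the difference between the clones was tested directly with limma. PCP4 was 4.55 ± 0.23 higher in KO2 than in KO1 on the log2 scale (adjusted p = 2.15e-08), with 3 of 3 KO2 libraries above WT and 3 of 3 KO1 libraries below it (0.25, 0.24 and 0.12 FPKM in KO1). NLRP11 differed by 4.09 ± 0.12 (adjusted p = 9.51e-11), at 25.5, 24.4 and 16.5 FPKM in KO2 and 0.35, 0.36 and 0.30 FPKM in KO1. LGALS1 differed by 2.47 ± 0.13 (adjusted p = 4.2e-08), with KO1 at 103, 102 and 110.4 FPKM, and lies in the chromosome 22 stretch. In the other direction, SLC43A3 differed by −3.41 ± 0.08 (adjusted p = 5.81e-12), at 2.62, 2.33 and 3.37 FPKM in KO2 and 38.9, 37.9 and 39.8 FPKM in KO1. PAGE5 differed by −2.18 ± 0.08 (adjusted p = 8.61e-10), with KO1 at 93.4, 89.7 and 98.2 FPKM. NRGN, in the chromosome 11 stretch, differed by −1.80 ± 0.13 (adjusted p = 4.57e-07), at 4.07, 3.72 and 5.88 FPKM in KO2 and 15.7, 18.7 and 19.98 FPKM in KO1.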

How the results depend on the processing

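Counts of called genes depended on which libraries set the spread. A fit to the KO2 and WT libraries alone called 125 higher and 236 lower (361 called in the same direction without library 3), array weights called 2599 and 2937 (5492), leaving out library 3 of KO2 with library 3 of KO1EV called 1961 and 2215, and a fit to KO2 and WT alone without library 3 called 1911 and 2149. Leaving out 1 library at a time gave 365 to 1439 higher, 548 to 1652 lower and 912 to 1006 called in both fits; the lowest counts came without WT library 2 (365 higher) and WT library 3 (435 higher), and the most higher and lower calls without KO2 library 3. Pseudocounts, filters and quantile scaling stayed within 1.5 times of the main counts. With a replicate block 721 were higher and 833 lower, and 1438 were called in both fits. The labels do not say whether libraries of equal number share a source. Among named genes that were not called with all libraries, 12 turned sign in some setting. Over the fits that left out 1 library the log2 change ran from −0.18 to 0.070 for MYC, −0.26 to 0.12 for TNFRSF17, −1.08 to 0.60 for DDIT3, −0.32 to 0.38 for ATF4, −1.55 to 0.32 for INHBE, −1.31 to 0.14 for CHAC1, −0.70 to 0.92 for TRIB3, −0.93 to 0.23 for ASNS and −0.34 to 0.71 for HSPA8, with the end opposite in sign to the value over all libraries reached without library 3 of KO2, also in both further fits that leave it out. With array weights these 9 genes stood at 0.043, 0.12, 0.61, 0.37, 0.28, 0.10, 0.90, 0.27 and −0.31. The ranges were −0.19 to 0.083 for MYBL2, −0.13 to 0.90 for CDKN1A and −0.019 to 0.077 for XBP1, and their sign turned without KO2 library 1 or 2, and for MYBL2 also without WT library 3. Of 130 named genes called with all libraries, 57 were called in the fit to KO2 and WT alone, and 130 with array weights. With windows of 15, 25 and 40 genes the lower stretches held 182, 182 and 153 fallen genes. Depth is unknown, so counting error could not be given.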

Other observations

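Interferon-stimulated genes split in KO2. Of 16 tested genes 3 rose (18.8%, beside 6.3% of all tested genes) and 2 fell (12.5%, beside 7.57%), and 8 were called higher and 3 lower without library 3. MX1 rose from 0.95, 0.85 and 1.14 to 2.89, 2.62 and 2.14 FPKM (log2 0.84 ± 0.12, adjusted p = 0.000317). OAS1, the RNase L activator, was at 1.58, 1.48 and 1.78 FPKM in WT and 6.38, 6.81 and 2.35 FPKM in KO2, with library 3 nearest to WT (log2 1.15 ± 0.24, adjusted p = 0.00529). EPSTI1 rose too (log2 0.63 ± 0.10) and passed the filter through KO2 alone. IFI16, a DNA sensor, fell from 4.55, 5.14 and 3.95 to 2.11, 2.10 and 0.95 FPKM (log2 −1.06 ± 0.15, adjusted p = 0.00029), and BST2 was the other fallen gene. Of 18 MHC class I genes 2 fell (11.1%, beside 7.57% of all tested genes) and 0 rose. Those fallen were the proteasome activator PSME1 (log2 −0.32 ± 0.074) and the peptide transporter TAP2 (−0.35 ± 0.084). Of 19 NF-kB genes 2 fell (10.5%, beside 7.57% of all tested genes). They were TNFAIP3, the inhibitor A20 (log2 −0.51 ± 0.10, adjusted p = 0.00412), and BIRC2 (−0.36 ± 0.082, adjusted p = 0.0095).

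Of 77 cytosolic ribosomal protein genes 2 fell (2.6%, beside 7.57% of all tested genes), RPS25 from 2219.6, 2278 and 2536 to 1588, 1634 and 1475 FPKM (log2 −0.58 ± 0.084) and RPS4X (log2 −0.30 ± 0.077), and 1 rose (1.3%, beside 6.3%), FAU (0.22 ± 0.06). Of 15 translation factors 2 rose (13.3%, beside 6.3% of all tested genes). They were EEF1A2 and EIF2S1, the alpha subunit of eIF2 (EIF2S1 log2 0.62 ± 0.12, adjusted p = 0.00322). Of 39 proteasome genes 4 rose (10.3%, beside 6.3% of all tested genes) and 0 fell. Of the list 2 were called higher without WT library 2 and 3 without WT library 3. The 4 that rose were PSMC1 (log2 0.55 ± 0.10), PSMG2 (0.28 ± 0.056), POMP (0.34 ± 0.084) and PSMC4 (0.36 ± 0.10). In the hypoxia list 0 of 14 passed in both fits, and HIF1A was called higher without library 3 alone (log2 0.19 ± 0.058, adjusted p = 0.0191). Of 19 CDK inhibitor and p53 genes 0 passed in both fits, 1 was called lower with all libraries, RRM2B (log2 −0.31 ± 0.10, adjusted p = 0.0468), and 5 were called higher without library 3.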
